A study of Mus musculus with 34 samples.

Results

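Trophoblast is the first lineage to separate from the embryo proper, and mouse embryonic stem (ES) cells normally keep the factors that build it at low levels. A set of 10 genes for transcription factors of this lineage was followed across all 34 RNA-seq libraries of a study of the MTA subunits of NuRD, out of 48709 genes counted in one set of libraries and 22018 in the other. The genes were chosen by name for their known part in trophectoderm, in trophoblast stem cells or in the differentiated trophoblast of the placenta, namely Tead4, Cdx2, Eomes, Elf5, Tfap2c, Gata3, Gata2, Tfap2a, Ascl2 and Hand1. All 10 were counted in both sets. For each gene the question was whether its level differed when the MTA proteins were absent singly or together, and whether that difference depended on culture.

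The second set held 16 libraries in 4 groups of 4, Control and Mta123KO ES cells, each labelled either 2i+LIF (written 2iL here, the medium with Mek and Gsk3 inhibitors and the cytokine LIF) or 48 h in N2B27 without the inhibitors and LIF. Control cells carried 1 deleted Mta1 allele and floxed Mta3 (Mta1 +/∆ Mta3 flox/flox). Mta123KO cells had both Mta1 alleles deleted, Mta2 removed by CRISPR targeting that left a puromycin cassette on 1 allele, and floxed Mta3 deleted by a Cre construct. Replicates were numbered 1_1, 1_2, 2_1 and 2_2, and the first digit was read as the line, so each group held 2 lines with 2 libraries each, and libraries of 1 line are not independent cultures as far as the labels say. The single-mutant set held 18 libraries labelled 2iL, 3 each of Mta1 del/del, Mta1 flox/flox, Mta2 KO, Mta2 WT, Mta3 del/del and Mta3 flox/flox. The deleted Mta1 and Mta3 lines were made with Cre from their flox/flox parents, whereas the Mta2 KO line was derived on its own and not from the Mta2 WT cells. All were labelled 129/Ola.

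Libraries of the second set held 37855790 to 57602285 counted reads and those of the single-mutant set 13105820 to 40613585, so 1 CPM (a count scaled to a library of 1000000 reads) stood for about 13.1 reads or more. Mta2 fell in Mta2 KO (9.23 to 11.9 CPM against 231 to 247 in WT) and in Mta123KO (log2 fold change −4.17 labelled 2iL and −4.53 labelled 48 h), and Mta3 fell in Mta3 del/del (9.65 to 12.8 against 60.6 to 70.4 CPM). In Mta123KO, Mta3 fell by less (−1.76 and −1.44), and Mta1, of which Control lacks 1 allele, was not called (−0.76 and −0.67). Mta1 counts remained in Mta1 del/del, at 38.5 to 48 CPM against 69 to 105 in the parent. The file names of the second set gave the opposite culture from the labels, which were followed. Summed naive ES cell markers, such as Klf4 and Tfcp2l1, reached 3680 to 4040 CPM in Control labelled 48 h and 158 to 242 in Control labelled 2iL, against 3170 to 5780 in the single-mutant set. Formative epiblast markers, such as Fgf5 and Otx2, summed to 110 to 125 CPM in Control labelled 48 h and 1290 to 1880 in Control labelled 2iL. On naive markers, Control labelled 48 h thus lay within the range of the single-mutant libraries labelled 2iL, and Control labelled 2iL lay far below it. Every result given by culture label is subject to this conflict. If the cultures of the second set were exchanged, the comparisons of genotype would exchange places and the changes with culture would reverse in sign.

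In the blastocyst the outer cells polarise, Hippo signalling is low there, and Yap1 enters the nucleus to act with Tead4 on the genes of the trophectoderm. Cdx2 and Gata3 are activated in these cells, and Cdx2, Eomes, Elf5 and Tfap2c then hold trophoblast stem cells in a self-renewing state through shared regulation. Gata2, Ascl2 and Hand1 are known from later trophoblast, Ascl2 in the precursors of the spongiotrophoblast and Hand1 in giant cells. NuRD joins a nucleosome remodeller to histone deacetylases, and it is known in ES cells as a repressor and modulator of genes of other lineages.

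Promoter windows of 300 bases (250 before and 50 after a RefSeq transcription start, build GRCm38.p6) were held for 7 of the 10 genes, in 10 windows. Tfap2c, Hand1 and Tead4 had no window. The windows are shown for Cdx2, which rose in only 1 of the knockout lines, and for Elf5, Gata3, Gata2 and Ascl2, which rose in both, because their density of CG, the dinucleotide at which mammalian DNA is methylated, differed widely. The letters CG are in capitals, and each window is written 5′ to 3′ along the gene's strand.
Cdx2, chr5:147307200-147307499, minus strand: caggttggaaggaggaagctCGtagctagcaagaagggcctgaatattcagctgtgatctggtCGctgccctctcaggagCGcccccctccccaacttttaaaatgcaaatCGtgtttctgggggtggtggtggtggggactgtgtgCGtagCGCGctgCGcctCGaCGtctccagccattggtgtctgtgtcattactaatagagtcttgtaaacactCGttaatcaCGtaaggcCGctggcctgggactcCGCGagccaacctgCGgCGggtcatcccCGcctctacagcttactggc
Elf5, chr2:103411848-103412147, plus strand: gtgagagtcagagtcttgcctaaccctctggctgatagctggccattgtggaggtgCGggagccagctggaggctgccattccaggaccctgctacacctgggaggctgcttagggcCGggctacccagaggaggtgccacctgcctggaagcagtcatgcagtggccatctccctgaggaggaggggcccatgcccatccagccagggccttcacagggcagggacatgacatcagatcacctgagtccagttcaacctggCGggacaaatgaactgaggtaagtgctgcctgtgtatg
Gata3, chr2:9878551-9878850, minus strand: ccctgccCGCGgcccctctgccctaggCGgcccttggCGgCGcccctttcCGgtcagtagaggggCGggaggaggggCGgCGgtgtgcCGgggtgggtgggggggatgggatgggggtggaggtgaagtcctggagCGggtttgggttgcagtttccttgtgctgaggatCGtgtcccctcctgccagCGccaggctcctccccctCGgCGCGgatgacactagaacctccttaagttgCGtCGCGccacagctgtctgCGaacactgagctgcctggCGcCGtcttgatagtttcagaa
Gata2, chr6:88193641-88193940, plus strand: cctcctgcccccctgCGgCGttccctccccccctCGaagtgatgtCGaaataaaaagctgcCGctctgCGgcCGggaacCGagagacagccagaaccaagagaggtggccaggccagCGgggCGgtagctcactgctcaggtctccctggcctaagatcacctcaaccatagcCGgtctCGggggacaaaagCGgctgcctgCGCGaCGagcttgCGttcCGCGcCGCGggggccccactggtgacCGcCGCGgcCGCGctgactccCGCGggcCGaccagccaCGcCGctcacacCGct
Ascl2, chr7:142969215-142969514, minus strand: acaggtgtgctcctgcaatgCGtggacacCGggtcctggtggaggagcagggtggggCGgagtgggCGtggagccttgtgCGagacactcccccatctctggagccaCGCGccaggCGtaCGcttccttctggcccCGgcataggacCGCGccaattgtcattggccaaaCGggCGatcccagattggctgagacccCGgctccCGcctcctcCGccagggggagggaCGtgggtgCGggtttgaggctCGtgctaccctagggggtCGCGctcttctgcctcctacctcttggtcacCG

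Among these, the Elf5 window held 3 CG, the Cdx2 window 18, the Gata3 window 22, the Ascl2 window 23 and the Gata2 window 32, where the median over 32851 windows of the same table was 7. A downstream start of Elf5 had 10 CG, and one of Gata2 had 29. Thus the windows of genes that rose in both lines ran from CG-poor to CG-rich. These 3 sets of letters were searched on both strands: GGAATG, which Tead factors bind, AGATAA, which Gata factors bind, and GCCNNNGGC, which Tfap2 factors bind. GGAATG was found in 2 of the 10 windows (Elf5 upstream and Gata2 downstream) and in 14.7% of all windows. GCCNNNGGC was found in 3 (Cdx2, Gata3 and Gata2 downstream), in 3 separate copies in Gata3, and in 16.6% of all windows. AGATAA was in none of the 10 and in 11.2% of all. No match overlapped another.

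When all 3 MTA proteins were missing, each of the 10 factors was higher in the libraries labelled 2iL. In Mta123KO against Control, 10 of 10 were called higher (edgeR quasi-likelihood F test, adjusted p under 0.05 over all genes and an absolute log2 fold change above 1), with a median log2 fold change of 3.12 against 0.01 over all 21651 genes tested. Of all genes tested, 13.2% were called higher and 7.43% lower. In libraries labelled 48 h, 5 of the 9 tested factors were called higher, Elf5, Gata3, Gata2, Tfap2a and Ascl2, with a median of 2.28, where 14.1% of 21079 genes were called higher and 5.93% lower. Hand1 did not pass the filter on low counts in that comparison. In Control labelled 2iL, Gata3 (1 to 11 reads), Elf5 (7 to 14) and Tfap2a (8 to 18) had libraries under the filter's minimum of 10. These factors passed through the Mta123KO libraries, and so did Elf5 labelled 48 h (6 to 17 in Control). Their places in the counts and medians above therefore carry no weight. In bulk RNA, more cells with a gene on and more RNA per cell cannot be told apart, for these and all later values. The genes are described in order of their role, and values of the 4 libraries of a group are in the order 1_1, 1_2, 2_1 and 2_2.

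**Figure D1:**
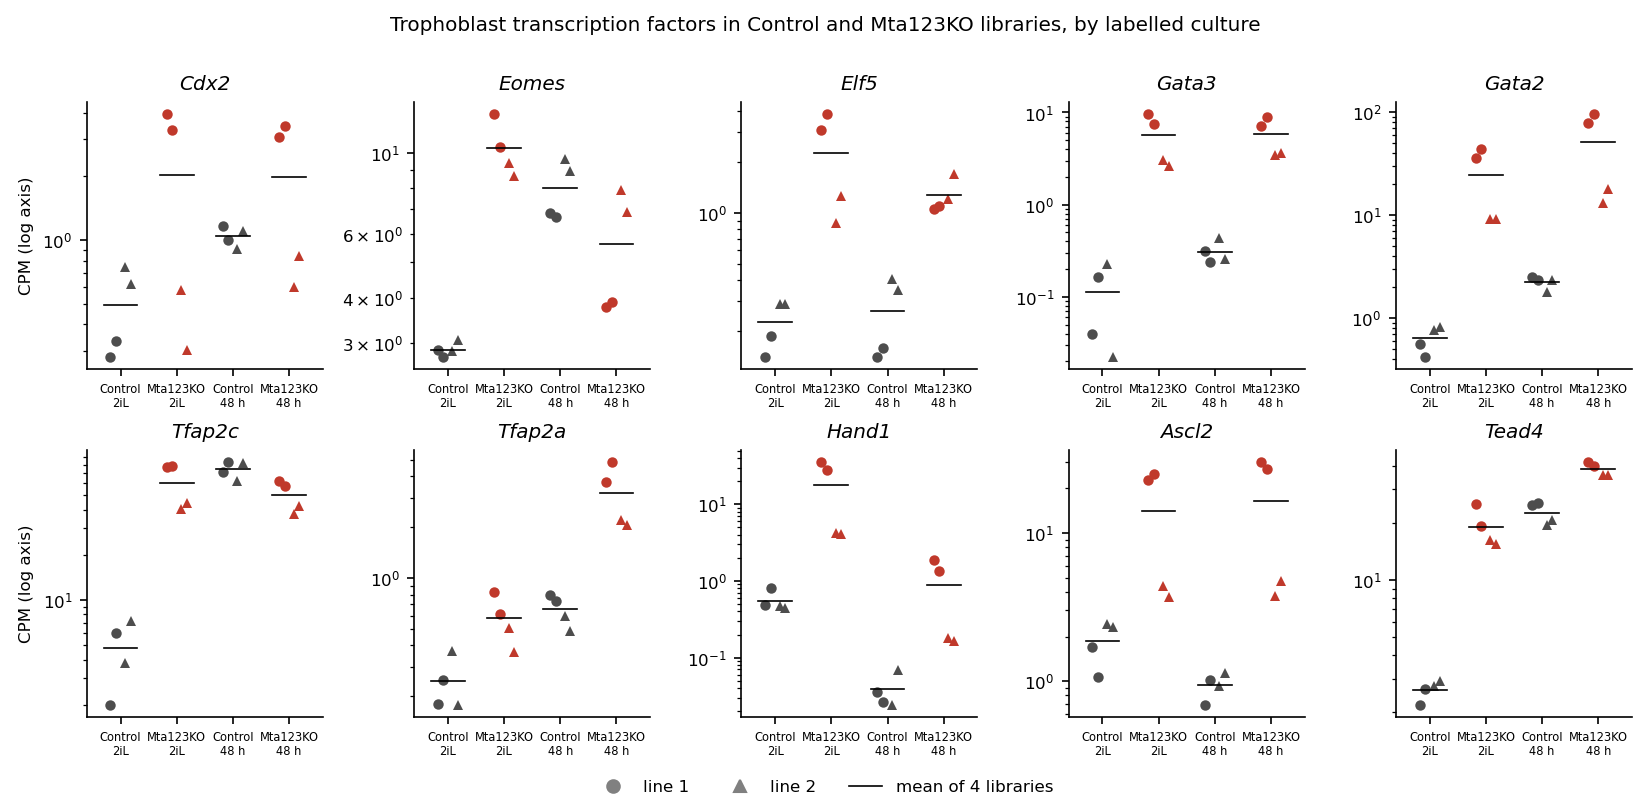
CPM of each factor (log axis) in the 4 Control (grey) and 4 Mta123KO (red) libraries under each culture label; circles are line 1, triangles line 2, and bars the mean of 4 libraries. Tead4, Elf5, Gata3, Gata2, Ascl2 and Hand1 are above every Control library of the same label in all 8 Mta123KO libraries. Tfap2c and Tead4 are low only in Control labelled 2iL, and Cdx2 is high in line 1 alone.

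Tead4 (ENSMUSG00000030353, chr6:128224288-128300823, minus strand) is the DNA-binding partner of Yap1 at the start of the trophectoderm programme. Control libraries labelled 2iL had 2.18, 2.66, 2.77 and 2.93 CPM, and Mta123KO libraries 25.2, 19.2, 16.3 and 15.5. The groups did not overlap, and the log2 fold change was 2.87 ± 0.18 (SE; adjusted p = 7.06e-06). Under the 48 h label, Control had 24.7, 25.3, 19.5 and 20.7 CPM and Mta123KO 41.6, 39.9, 35.8 and 35.7. Mta123KO was again above every Control library, but by less than 2-fold (log2 fold change 0.77 ± 0.10, adjusted p = 3.45e-04), so Tead4 was not called there. The only annotated gene overlapping Tead4 is a processed pseudogene on the opposite strand.

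Cdx2 (ENSMUSG00000029646, chr5:147300805-147307270, minus strand), the homeobox factor required to keep trophectoderm identity, differed between the knockout lines. Labelled 2iL, Control had 0.28, 0.332, 0.745 and 0.621 CPM, and Mta123KO 3.93, 3.33, 0.583 and 0.301. Line 1 was above all Control libraries, while line 2 lay within their range. The pooled log2 fold change of 2.06 ± 0.77 only just passed (adjusted p = 0.0492), and was lost without any 1 of 6 libraries (adjusted p 0.068 to 0.132). Labelled 48 h, Control had 1.16, 0.998, 0.91 and 1.1 CPM, and Mta123KO 3.07, 3.45, 0.603 and 0.839. Here line 1 was above Control and line 2 below it, and the pooled value of 0.94 ± 0.52 did not pass (adjusted p = 0.163), but did without Mta123KO 2_1 (1.24, adjusted p = 0.0363).

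Eomes (ENSMUSG00000032446, chr9:118478212-118486132, plus strand), a T-box factor of trophoblast stem cells and later of the primitive streak, was higher in the knockout under the 2iL label. Control had 2.86, 2.74, 2.84 and 3.06 CPM, and Mta123KO 12.8, 10.4, 9.42 and 8.67 (log2 fold change 1.86 ± 0.14, adjusted p = 1.59e-05). Under the 48 h label the order was not kept. Control then had 6.84, 6.67, 9.62 and 8.95 CPM, and Mta123KO 3.77, 3.89, 7.93 and 6.88 (log2 fold change −0.50 ± 0.26, adjusted p = 0.134). Line 1 was below every Control library there, and line 2 lay among them. An antisense gene overlaps the 3′ end of Eomes, and strand use in counting is not given in the sources used here.

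Elf5 (ENSMUSG00000027186, chr2:103411688-103450989, plus strand), an Ets factor whose promoter is known to be methylated in ES cells and unmethylated in trophoblast stem cells, stayed at low levels but was higher in every knockout library. Control labelled 2iL had 0.14, 0.187, 0.29 and 0.288 CPM (7 to 14 reads), and Mta123KO 3.08, 3.83, 0.874 and 1.25 (log2 fold change 3.33 ± 0.53, adjusted p = 8.16e-04). Control labelled 48 h had 0.141, 0.158, 0.407 and 0.35 CPM, and Mta123KO 1.06, 1.1, 1.21 and 1.7 (2.28 ± 0.36, adjusted p = 7.80e-04). The lowest knockout library was thus above the highest Control library under both labels. No annotated gene overlaps Elf5, and its promoter window was the poorest in CG of those shown.

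Tfap2c (ENSMUSG00000028640, chr2:172549593-172558622, plus strand) encodes AP-2 gamma, which acts in trophectoderm and is also expressed in naive ES cells and germ cell precursors. Control labelled 2iL had 1.98, 6, 3.77 and 7.23 CPM, and Mta123KO 77.5, 77.9, 40.4 and 44.4. The difference was 3.68 ± 0.41 on the log2 scale (adjusted p = 1.17e-04). In libraries labelled 48 h, Control and knockout overlapped only at the edge, with Control at 71.8, 82.6, 61.7 and 82.4 CPM, against 62.1, 57.3, 37.5 and 42.2 in Mta123KO. The log2 fold change of −0.58 ± 0.17 had an adjusted p of 0.0189 but fell short of the threshold on size.

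Gata3 (ENSMUSG00000015619, chr2:9857078-9890034, minus strand), a zinc finger factor of trophectoderm, had the largest log2 fold change of the 10 labelled 2iL. Control had 0.04, 0.166, 0.228 and 0.0222 CPM, which is 1 to 11 reads, and Mta123KO 9.55, 7.45, 3.06 and 2.6 CPM (log2 fold change 5.61 ± 0.67, adjusted p = 1.68e-04). The size of that value, and so its rank, depends on the few Control reads. Labelled 48 h, Control had 0.317, 0.236, 0.431 and 0.256 CPM, and Mta123KO 7.21, 8.9, 3.46 and 3.67 (4.22 ± 0.39, adjusted p = 4.11e-05). Gata3 was near absent from Control and at several CPM in all 8 knockout libraries, with line 1 above line 2. The annotation places 1 gene on the same strand and 2 on the opposite strand within its span, and how reads that overlap several genes were assigned is not given in the sources used here.

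Gata2 (ENSMUSG00000015053, chr6:88193891-88207032, plus strand), which acts in trophoblast giant cells and in blood progenitors, followed the same order. Control labelled 2iL had 0.559, 0.415, 0.766 and 0.82 CPM, and Mta123KO 36, 43.5, 9.05 and 9.06 (log2 fold change 5.27 ± 0.64, adjusted p = 1.88e-04). Control labelled 48 h had 2.47, 2.34, 1.77 and 2.31 CPM, and Mta123KO 78.8, 94.7, 13 and 17.9 (4.53 ± 0.67, adjusted p = 5.53e-04). No annotated gene overlaps Gata2, and its knockout libraries held 373 to 4309 reads. Line 1 exceeded line 2 in each culture by more than the gap between libraries of a line.

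Tfap2a (ENSMUSG00000021359, chr13:40715302-40738376, minus strand) encodes AP-2 alpha, best known from surface ectoderm and neural crest and also present in trophoblast. Control labelled 2iL had 0.18, 0.249, 0.373 and 0.177 CPM, and Mta123KO 0.828, 0.612, 0.51 and 0.366. One knockout library fell inside the Control range, and the log2 fold change was 1.25 ± 0.35 (adjusted p = 0.0146). Labelled 48 h, Control had 0.793, 0.736, 0.599 and 0.489 CPM, and Mta123KO 3.72, 4.84, 2.21 and 2.06, without overlap (2.29 ± 0.32, adjusted p = 3.98e-04). The annotation has 3 antisense genes in its span.

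Ascl2 (ENSMUSG00000009248, chr7:142966829-142969264, minus strand), an imprinted basic helix-loop-helix factor of spongiotrophoblast precursors, rose most in line 1. Control labelled 2iL had 1.7, 1.06, 2.42 and 2.31 CPM, and Mta123KO 22.9, 25, 4.39 and 3.7 (log2 fold change 2.92 ± 0.66, adjusted p = 0.00548). Control labelled 48 h had 0.687, 1.02, 0.934 and 1.14 CPM, and Mta123KO 29.9, 26.9, 3.73 and 4.76 (4.12 ± 0.73, adjusted p = 0.00147). No knockout library overlapped a Control library under the same label, and the levels of the lines differed by several fold.

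Hand1 (ENSMUSG00000037335, chr11:57828705-57832818, minus strand), a basic helix-loop-helix factor of giant cells and extraembryonic mesoderm, had its highest levels in the knockout under the 2iL label. Control had 0.479, 0.81, 0.476 and 0.443 CPM, and Mta123KO 35.1, 28.3, 4.2 and 4.09 (log2 fold change 5.03 ± 0.82, adjusted p = 9.67e-04). Labelled 48 h, Control had 2, 1, 1 and 3 reads, and Mta123KO 81, 61, 8 and 9 reads, equal to 1.87, 1.34, 0.179 and 0.164 CPM. Without the filter on low counts the log2 fold change was 4.40 ± 0.90 (adjusted p = 0.00239), a value that depends on 1 to 3 reads in each Control library. Knockout libraries were above Control under both labels, but at levels that were far apart.

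With the counts of a line's libraries added up before the fit, so that n was 2 lines a group, 7 of 10 factors were called labelled 2iL. Cdx2 (adjusted p = 0.233), Tfap2a (0.114) and Ascl2 (0.0917) no longer passed, whereas the 5 factors called labelled 48 h all passed. Of all genes, 2834 were called in either direction labelled 2iL in that fit, against 4470 with the libraries kept apart. The number of genes tested in the summed fits, and the total labelled 48 h, are not given here. The counts of factors are therefore not set against a share.

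The lines were next compared with the 4 Control libraries one at a time, in a fit that held the 2 lines apart. Labelled 2iL, line 1 had 10 of 10 factors called higher (16.3% of 23279 genes were) and line 2 had 8 of 10 (12.5%), all but Cdx2 and Tfap2a. Labelled 48 h, line 1 had 7 higher and 1 lower (16.8% and 8.2% of 22694 genes), and line 2 had 6 higher (13.7%). Both of these counts include Hand1, which failed the filter in the pooled comparison and passed it here through line 1 alone. Its line 2 value of 2.06 ± 0.53 rests on 8 and 9 reads against 1 to 3. Labelled 2iL, Gata3 passed the filter through the knockout lines, at 1 to 11 reads in Control. Its place in the counts of that label therefore carries no weight. Both line comparisons share the Control libraries, and a line rests on 2 libraries, so these are tests of those cultures. Cdx2 was 2.88 ± 0.32 above Control in line 1 labelled 2iL (adjusted p = 1.55e-05) and −0.16 ± 0.43 in line 2 (adjusted p = 0.775). Labelled 48 h it was 1.65 ± 0.19 in line 1 (adjusted p = 3.61e-05) and −0.52 ± 0.22 in line 2 (adjusted p = 0.0778). The 1 factor called lower was Eomes in line 1 labelled 48 h, at −1.05 ± 0.18 (adjusted p = 5.43e-04), which was −0.97 without Control 2_1. Ascl2 in line 2 labelled 2iL, at 1.12 ± 0.24, fell under the threshold on size (0.94 to 0.99) without single libraries.

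**Figure D2:**
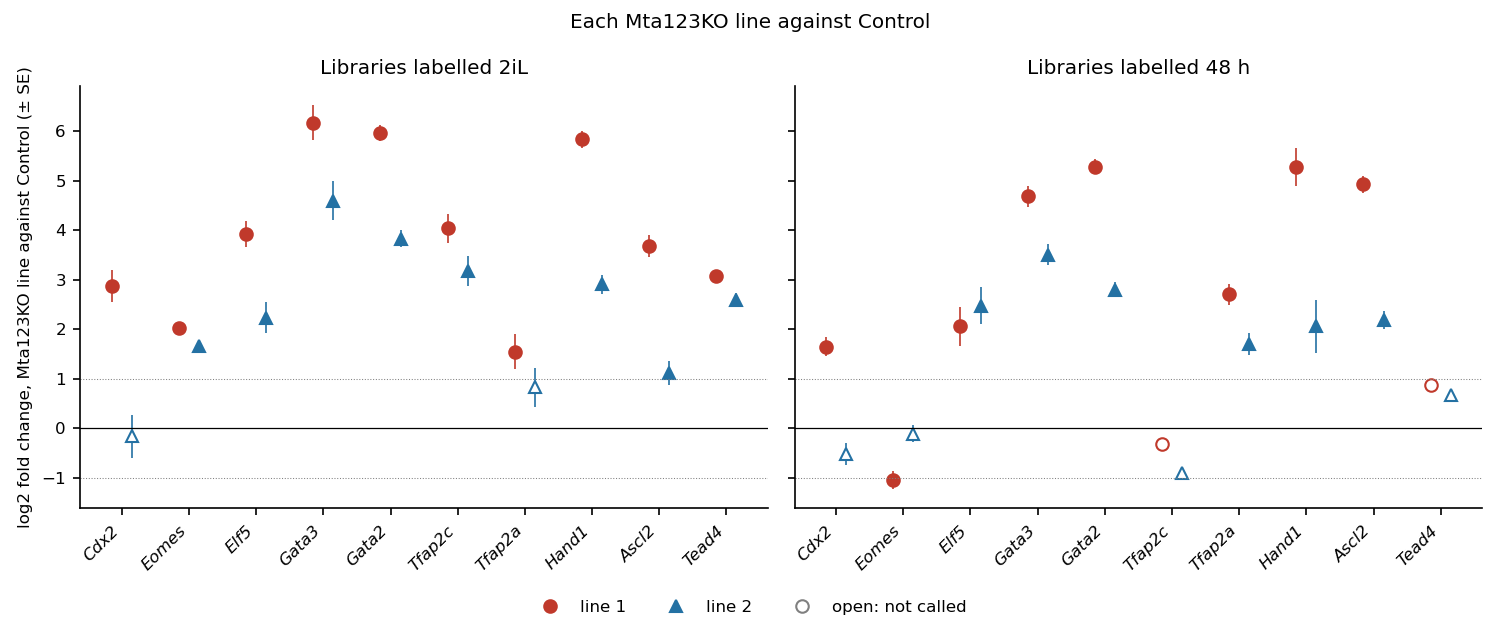
Log2 fold change (± SE) of each Mta123KO line against the 4 Control libraries of the same culture label; filled symbols were called and open ones were not. Line 1 is above line 2 for every factor labelled 2iL, and the pair differ most for Cdx2, Hand1, Ascl2 and Gata2.

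The difference between the lines was itself tested. Labelled 2iL, 6 factors were called higher in line 1 than in line 2, where 6.71% of all genes were, and labelled 48 h also 6, where 5.62% were. Cdx2 was 3.04 ± 0.42 higher in line 1 on the log2 scale labelled 2iL (adjusted p = 3.14e-04) and 2.17 ± 0.24 labelled 48 h (adjusted p = 1.55e-04). Hand1 was 2.93 ± 0.18 and 3.22 ± 0.40 higher, the second from 81 and 61 reads against 8 and 9. In that fit it passed the filter on low counts through line 1 alone. Ascl2 was 2.56 ± 0.26 and 2.75 ± 0.19 higher, and Gata2 2.13 ± 0.16 and 2.50 ± 0.17. Gata3 was 1.58 ± 0.31 and 1.19 ± 0.20 higher, the first of which missed the threshold in DESeq2 (adjusted p = 0.0541). Elf5 was called labelled 2iL (1.69 ± 0.29, adjusted p = 0.00112) but was −0.42 ± 0.39 labelled 48 h, and Tfap2a was called labelled 48 h (1.01 ± 0.23) but lost the call without any 1 of 3 knockout libraries (adjusted p 0.062 to 0.104). Mta3 itself was 1.02 ± 0.11 higher in line 1 labelled 48 h (adjusted p = 1.28e-04; 18.7 and 21.4 CPM against 9.51 and 10.3) and 0.60 ± 0.13 labelled 2iL, and its part in the line differences was not tested. For Tead4 the lines differed by 0.48 ± 0.15 labelled 2iL and by 0.20 ± 0.12 labelled 48 h, and neither was called.

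These factors include some that changed with culture and some that did not. In Control cells, libraries labelled 48 h against those labelled 2iL had 7 of 10 factors called higher and 1 lower, where 10.4% of 21240 genes were called higher and 13.2% lower. Tfap2c (log2 fold change 4.0 ± 0.30, adjusted p = 8.48e-07) and Tead4 (3.11 ± 0.13, adjusted p = 9.65e-09) rose most. Eomes (1.49 ± 0.14), Gata2 (1.81 ± 0.23), Tfap2a (1.43 ± 0.30), Gata3 (1.43 ± 0.53) and Cdx2 (1.09 ± 0.30) rose by less. Hand1 fell by 3.72 on the log2 scale (SE 0.42, adjusted p = 1.90e-05), from 20 to 39 reads to 1 to 3 reads a library. Labelled 2iL, Gata3 (1 to 11 reads) and Tfap2a (8 to 18) had libraries under the filter's minimum of 10. Both passed it through the libraries labelled 48 h, and Hand1 through those labelled 2iL. Their places in the counts of factors called higher and lower therefore carry no weight. Ascl2 was at −0.98 ± 0.27, just short of the threshold on size, and Elf5 at 0.22 ± 0.42. In one fit of all 16 libraries, whose shared spread includes that of the knockout lines, Cdx2, Gata3 and Gata2 were no longer called (adjusted p 0.24, 0.101 and 0.0575), which left 5. Gata3 also lost its call without any 1 of 4 Control libraries (adjusted p 0.0674 to 0.0954) and Cdx2 fell below the threshold on size without either line 1 library labelled 2iL (0.89 and 0.94).

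In Mta123KO cells the same comparison of cultures had only Tfap2a called higher (2.46 ± 0.36, adjusted p = 0.00217) and Hand1 called lower (−4.35 ± 1.05, adjusted p = 0.0189), where 4.84% of 21505 genes were called higher and 4.62% lower. Hand1 had 8 to 81 reads labelled 48 h and passed the filter on low counts through the libraries labelled 2iL (173 to 1654). Its place in the count therefore carries no weight. Tead4 was 1.0 ± 0.15 higher (adjusted p = 0.00272), at the threshold on size. With the replicate number as a block, which pairs libraries of the same line, Tead4 passed it (1.02, adjusted p = 1.02e-04) and 3 factors were called. With the libraries of a line summed, none of the 10 factors and no gene at all was called. Gata2 was higher labelled 48 h in all 4 pairs of libraries (1.06 ± 0.77, adjusted p = 0.366; with the block 0.95, adjusted p = 3.08e-04), and Tfap2c was lower in all 4 (−0.28 ± 0.26, adjusted p = 0.493; with the block −0.24, adjusted p = 0.0321), but neither was called in either fit. Gata3 was at 0.03 ± 0.48.

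A test of the interaction asked which factors differed in their genotype effect between the culture labels. Of the 10, 3 were called, all with a log2 fold change of knockout against Control that was lower in libraries labelled 48 h. Of 22973 genes, 5.37% were called in that direction and 7.66% in the other. Tfap2c had an interaction of −4.25 ± 0.45 (adjusted p = 9.16e-06), Eomes −2.36 ± 0.31 (adjusted p = 6.91e-05) and Tead4 −2.09 ± 0.21 (adjusted p = 4.46e-06). For all 3, every library of Control labelled 2iL was below every library of the other 3 groups. With libraries of a line summed, Eomes no longer passed (adjusted p = 0.0525). With the replicate number as a block, 6 were called, and those added were Gata3 (−1.36, adjusted p = 0.0399), Tfap2a (1.01, adjusted p = 0.0484) and Ascl2 (1.14, adjusted p = 0.00326). With lines summed these 3 were not called (adjusted p 0.484, 0.447 and 0.721).

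Levels can be set side by side between genes once divided by exon length (RPKM, the CPM per kilobase of exon). In Control labelled 2iL, Tfap2c (1.29 ± 0.633 RPKM, SD, n = 4), Ascl2 (1.15 ± 0.385), Tead4 (0.732 ± 0.0899) and Eomes (0.692 ± 0.032) led, each overlapping the next in its range. Gata3 was lowest at 0.0286 ± 0.025 RPKM, with a range that overlapped that of Elf5. In Mta123KO labelled 2iL the order was Tfap2c (16.4 ± 5.56), Hand1 (8.96 ± 8.08), Ascl2 (8.62 ± 7.1), Tead4 (5.29 ± 1.23), Gata2 (4.52 ± 3.33), Eomes (2.49 ± 0.435), Gata3 (1.42 ± 0.851), Cdx2 (0.9 ± 0.823), Elf5 (0.384 ± 0.242) and Tfap2a (0.118 ± 0.0397). All neighbours in that order overlapped. In Control labelled 48 h, Tfap2c (20.3 ± 2.69 RPKM) was followed by Tead4 (6.27 ± 0.795) and Eomes (1.93 ± 0.356), none overlapping the next, and Hand1 was last at 0.0195 ± 0.0106. In Mta123KO labelled 48 h, Gata2 (9.46 ± 7.72) and Ascl2 (10.1 ± 8.63) overlapped Tead4 (10.6 ± 0.845) and Tfap2c (13.5 ± 3.21), and no other factor was above 1.46 ± 0.675, the level of Gata3. Elf5 (0.215 ± 0.05) had the lowest mean there, but its range overlapped that of Hand1, which was below it in line 2 (0.0895 and 0.0822 RPKM against 0.205 and 0.289).

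The MTA proteins were then compared one at a time in the single-mutant set, labelled 2iL. Loss of Mta1 gave no call in any of the 8 factors tested, at an adjusted p of 1 for each, and 0 of 14561 genes were called (0% higher, 0% lower; 50 had an unadjusted p under 0.05). None of the 8 had an unadjusted p under 0.05 in edgeR, and DESeq2 called 0. The deleted gene itself was not called (Mta1 −0.97 ± 0.18, adjusted p = 1), so the absence of calls says little about the factors. The largest difference was Gata2 at −0.55 ± 0.62. Cdx2 was at 3.95, 3.79 and 2.68 CPM in the parent and at 3.79, 0.971 and 2.58 in Mta1 del/del. Gata3 and Hand1 did not pass the filter, at 2 to 9 and 2 to 6 reads in the parent and 3 to 12 and 1 to 9 reads in the mutant.

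**Figure D3:**
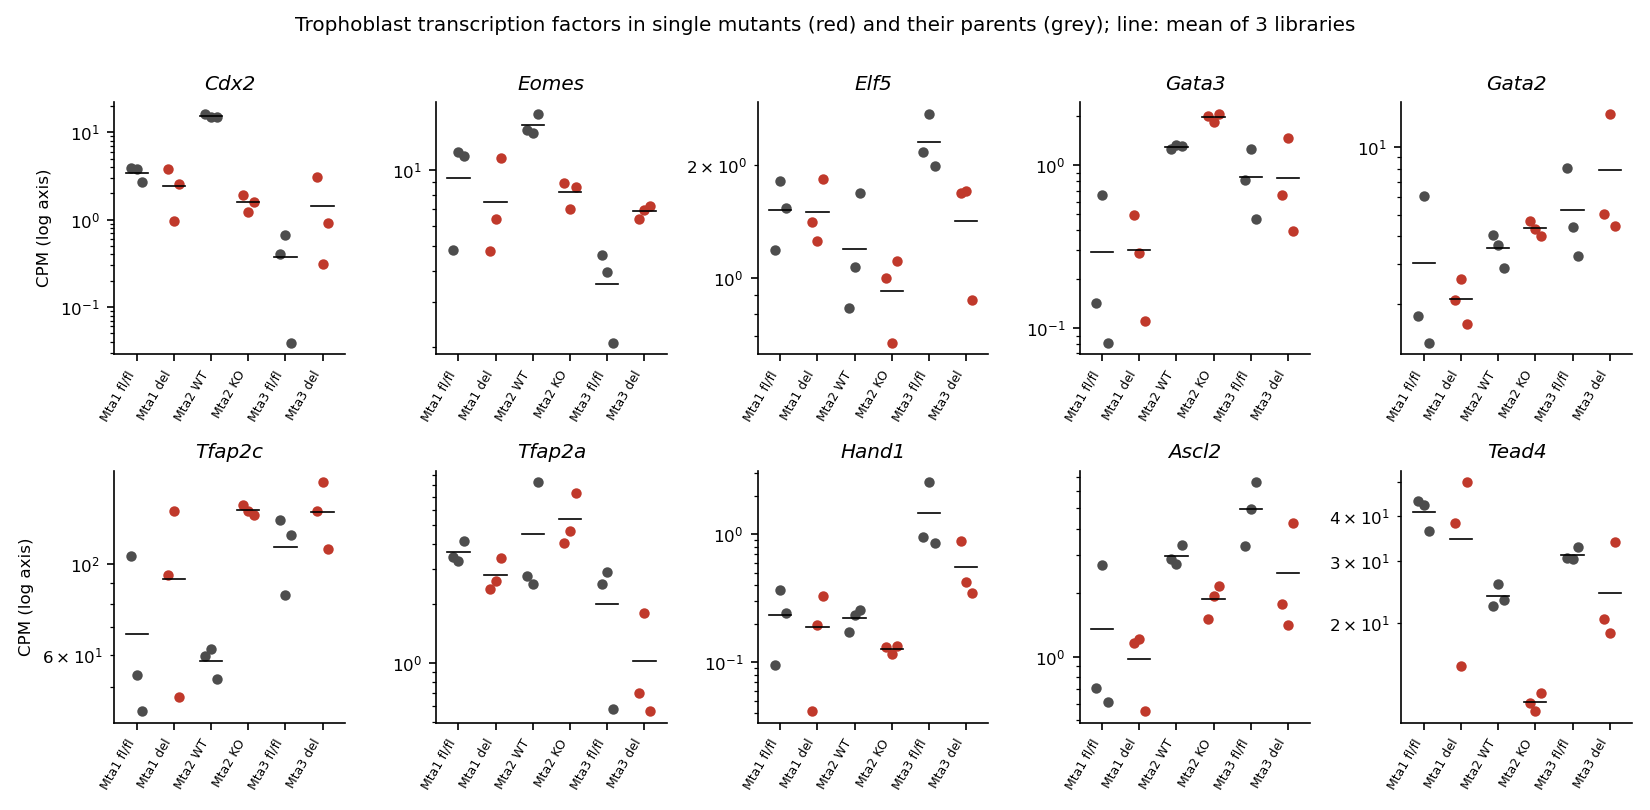
CPM (log axis) of each factor in the 3 libraries of each single mutant (red) and its parent or wild type (grey), with bars for the mean of 3. Cdx2 is the factor with the widest gap between Mta2 WT (15.1 to 16.4 CPM) and Mta2 KO (1.23 to 1.92 CPM).

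Mta2 KO against WT had 1 factor higher and 1 lower of 9 tested, where 5.31% of 15602 genes were called higher and 6.04% lower. The KO line was not derived from the WT cells, so loss of Mta2 and a difference between the lines cannot be told apart here. Cdx2 was at 16.4, 15.1 and 15.2 CPM in WT and at 1.92, 1.23 and 1.58 in Mta2 KO (log2 fold change −3.30 ± 0.14, adjusted p = 1.58e-07). This is the opposite direction from line 1 of Mta123KO, and the Mta2 WT libraries had the highest Cdx2 level of all 34. Tfap2c was at 59.6, 62.1 and 52.3 CPM in WT and at 140, 135 and 132 in Mta2 KO (1.22 ± 0.06, adjusted p = 5.58e-07). Tead4 had 22.4, 25.8 and 23.2 CPM in WT and 11.9, 11.3 and 12.7 in Mta2 KO, a log2 fold change of −1.0 ± 0.08 (adjusted p = 1.15e-05) that lay at the threshold and was called by DESeq2 (−1.0, adjusted p = 3.67e-20). Eomes (−0.89 ± 0.12), Ascl2 (−0.69 ± 0.18) and Gata3 (0.59 ± 0.17) passed the adjusted p but not the size. Gata2 had 4.06, 3.66 and 2.9 CPM in WT and 4.67, 4.33 and 4.02 in Mta2 KO (0.29 ± 0.15, adjusted p = 0.141), and Hand1 was at 4 to 9 reads in all 6 libraries.

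Loss of Mta3 gave 0 of 10 factors called, by edgeR and by DESeq2, although 3 had an unadjusted p under 0.05, where 0.812% of 15522 genes were called higher and 5.25% lower. Ascl2 had 3.32, 4.95 and 6.63 CPM in the flox/flox parent and 1.77, 1.4 and 4.24 in Mta3 del/del (−1.09 ± 0.43, adjusted p = 0.107), and Hand1 0.95, 2.55 and 0.858 against 0.883, 0.427 and 0.349 (−1.46 ± 0.57, adjusted p = 0.107). Cdx2 varied from 0.039 to 0.662 CPM in the parent and from 0.311 to 3.05 in the mutant (1.86 ± 0.95, adjusted p = 0.189). Summed fibroblast markers were 12.1 to 59.2 CPM in Mta3 flox/flox and 5.66 to 6.68 in Mta3 del/del, and their part in these values was not tested. The number of all genes called was 941, and was 3 without Mta3 del/del 1 and 1724 without Mta3 del/del 2.

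The levels in the single-mutant parents, all labelled 2iL, can be set beside those in the knockout, whose ranges here cover the libraries of both culture labels. Gata2 was at 1.34 to 8.07 CPM in the 9 parent and WT libraries, against 9.05 to 94.7 in Mta123KO, Ascl2 at 0.61 to 6.63 against 3.7 to 29.9, Gata3 at 0.0813 to 1.33 against 2.6 to 9.55, and Hand1 at 0.0952 to 2.55 against 0.164 to 35.1. Cdx2 reached 16.4 CPM in the parents and WT, against at most 3.93 in Mta123KO. Eomes was at 2.07 to 16.8 there against 3.77 to 12.8, and Tfap2a at 0.585 to 8.31 against 0.366 to 4.84, so unmutated cells reached or exceeded the knockout for these 3. Tead4 was at 22.4 to 44.2 CPM and Tfap2c at 43.6 to 128 in those parents, against 15.5 to 41.6 and 37.5 to 77.9 in Mta123KO. The ranges overlapped, and unmutated cells exceeded the highest knockout library for these as well. Elf5 was at 0.834 to 2.75 CPM there, overlapping the range of 0.874 to 3.83 in Mta123KO, and above every Control library of the second set. Because the sets were normalised apart and prepared differently, no test was made between them.

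The wider trophoblast programme was described from lists of other genes. The counts of these lists are to be read against 13.2% of all genes called higher and 7.43% lower labelled 2iL. Labelled 48 h, these shares were 14.1% and 5.93%. Of 12 genes of the trophectoderm epithelium, 11 were called higher labelled 2iL with a median log2 fold change of 3.35, among them Krt7 (5.53 ± 0.77) and Krt19 (4.96 ± 0.62), which encode keratins of simple epithelium. Krt7 was at 0.311 to 0.706 CPM in Control and 6.36 to 44.8 in Mta123KO labelled 2iL. Labelled 48 h, 9 of 12 were called higher and 1 lower, among them Krt18 (6.49 ± 0.73), another such keratin, and Cldn6 (5.24 ± 0.25), a claudin of tight junctions. The summed level of the list was 379 to 412 CPM in Control labelled 2iL, 736 to 761 in line 2 and 1743 to 1972 in line 1, so line 1 was again above line 2.

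Among 13 other genes of trophoblast stem cells, 9 were called higher and none lower labelled 2iL (median 1.19). Esx1, an X-linked homeobox factor of trophoblast, was highest at 5.22 ± 0.55, followed by the helix-loop-helix inhibitor Id2 (4.18 ± 0.50) and the ligand Bmp4 (2.06 ± 0.31). Labelled 48 h, 3 were higher and 2 lower (median −0.18), with Esx1 at 4.77 ± 0.27 and Id2 at 4.03 ± 0.50 still higher and Sox21 lower (−1.45 ± 0.13). Several of these genes, such as Esrrb and Sox2, are shared with ES cells. Esx1 was at 0.479 to 1.55 CPM in the 8 Control libraries and at 12.9 to 46.8 in the 8 Mta123KO libraries.

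Genes of differentiated placental trophoblast were split. Labelled 2iL, 5 of 10 tested were higher and 1 lower, among them Gcm1 (3.83 ± 0.46), the factor of syncytiotrophoblast formation, Dlx3 (3.66 ± 0.51) and Pcdh12 (3.48 ± 0.74). Labelled 48 h, 8 of 9 were higher, among them Gcm1 (5.78 ± 0.74), Dlx3 (4.25 ± 0.72) and Synb, the gene of a fusogen of the syncytiotrophoblast. Labelled 48 h, Synb had 0 or 1 read in each Control library and 68 to 462 in each Mta123KO library. It thus passed the filter through the knockout alone, so its place in the count of 8 of 9 carries no weight and no fold is given. Labelled 2iL it had at most 2 reads in Control and at most 1 in Mta123KO. The prolactin family and cathepsin genes of the list, with Tpbpa of spongiotrophoblast, had few reads or none. Tpbpa, Prl3d1 and Ctsq had 0 reads in every Control library and at most 1 in any Mta123KO library, and Prl3b1 had 0 in all 16. Prl2c2, a giant cell gene, had at most 1 read in Control and 0 to 11 in Mta123KO labelled 2iL.

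**Figure D4:**
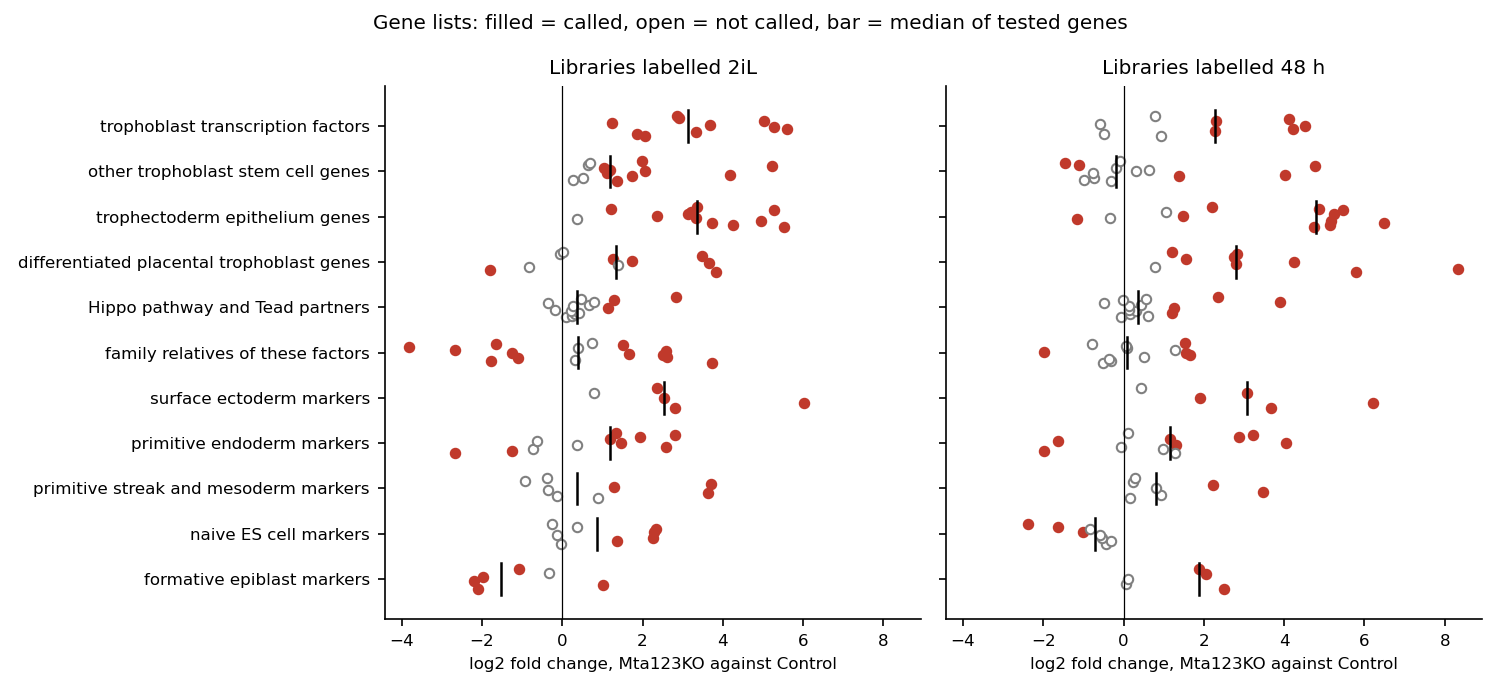
Log2 fold change of Mta123KO against Control for the tested genes of each list under both culture labels; filled points were called, open ones were not, and bars are medians. The trophectoderm epithelium list has the highest median under both labels (3.35 and 4.80), and the other trophoblast stem cell genes have medians of 1.19 and −0.18.

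Of 14 Hippo pathway and Tead partner genes, 3 were higher labelled 2iL and 4 labelled 48 h, with a median of 0.37 under each, where 13.2% and 14.1% of all genes were called higher. Vgll4, a cofactor that competes with Yap1 for Tead factors, rose from 3 to 3.24 CPM in Control to 13.9 to 29 in Mta123KO labelled 2iL (2.84 ± 0.23, adjusted p = 2.54e-05). Amotl1 (1.28 ± 0.26) and Sav1 (1.15 ± 0.07) were also called, and Amot was the largest labelled 48 h (3.90 ± 0.66). Among 15 tested relatives of the 10 factors, 6 were higher and 6 lower labelled 2iL. Cdx1 was higher (3.72 ± 0.66), while Gata6 (−2.68 ± 0.70), of primitive endoderm, was lower. A higher level was therefore not shared by all members of these families.

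Markers of other cell types differed in the same libraries, to be read against 13.2% of all genes called higher and 7.43% lower labelled 2iL, and 14.1% and 5.93% labelled 48 h. Of the 5 surface ectoderm markers tested, which include Krt5 and Trp63, 4 were higher under each label (Krt5 6.01 ± 1.10 and 6.22 ± 0.85), and their summed level was 24 to 35 CPM in Control and 56.3 to 80.3 in Mta123KO labelled 2iL. Of 11 primitive endoderm markers, 6 were higher and 2 lower labelled 2iL, and the sum was 165 to 265 CPM in Control and 376 to 734 in the knockout, with no marker at 0 throughout a group. Of 8 tested streak and mesoderm markers, 3 were higher, Msx2 (3.71 ± 0.72), Wnt3 (3.63 ± 0.82) and Msx1 (1.28 ± 0.39), and the sums were 27 to 30.5 CPM in line 1 and 6.56 to 7.62 in line 2, against 5.17 to 6.54 in Control. Naive markers had 4 of 8 higher labelled 2iL and 3 of 8 lower labelled 48 h. Formative markers had 1 higher and 4 lower of 6 labelled 2iL, and 3 higher of 5 labelled 48 h. Of 4 tested fibroblast markers, 3 were higher labelled 2iL, among them Thy1 (2.93 ± 0.24) and Col1a1 (1.94 ± 0.28), and Dcn was lower (−4.62 ± 0.44). Their sums were 2.6 to 5.39 CPM in Control and 6.56 to 8.19 in Mta123KO, without overlap. The part of other cell types in the levels of the 10 factors was not tested.

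Finally, the pattern of each factor over the 16 libraries of the second set was compared with that of 16998 genes of at least 1 CPM on average. These correlations of log2 CPM describe libraries that fall into 4 groups and 2 lines, and carry no test. Gata3 and Gata2 were most alike among the factors (r = 0.95), followed by Tfap2c and Tead4 (0.92), while Hand1 with Tfap2a (0.01) and Hand1 with Tead4 (0.02) were least alike. The median over the 45 pairs was 0.62. The single most similar gene was Arhgap21 for Cdx2 (r = 0.954), Ppm1k for Eomes (0.943), Cpne1 for Elf5 (0.963), Anxa8 for Gata3 (0.982), Sept8 for Gata2 (0.992), Klhdc7a for Tfap2c (0.979), Gm6157 for Tfap2a (0.969), Ptprt for Hand1 (0.977), Shisal1 for Ascl2 (0.988) and Dsg2, a desmosomal cadherin, for Tead4 (0.995).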

How the data were processed

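RNA was sequenced in 34 libraries of mouse ES cells. According to the labels and the methods, the authors trimmed reads with Trim Galore! 0.4.1, aligned them to GRCm38 with Tophat 2.1.0 and counted them per gene with featureCounts 1.5.0 on Ensembl release 86. The deposited values are these raw counts, with 37855790 to 57602285 counts a library in the second set and 13105820 to 40613585 in the single-mutant set. The single-mutant libraries were read single-end and the second set paired-end. How reads that align to several places were handled, and which strand was counted, is not given in the sources used here. Symbols, positions and exon lengths came from GENCODE vM21, which matched 48349 of 48709 and 21852 of 22018 gene identifiers.

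Genes kept by filterByExpr were compared by the quasi-likelihood F test of edgeR 4.0.16 in R 4.3.3 after TMM scaling, and Benjamini-Hochberg adjustment covered all of them. Calls needed an adjusted p below 0.05 together with a log2 fold change beyond 1 in either direction. Only the groups compared entered a fit. The SE is the log2 fold change divided by the square root of F. CPM used TMM over all libraries of a set. Spike-in RNAs served for an alternative scaling only. Fits were tested on simulated counts with 200 genes changed. DESeq2 1.42.0, RLE, no filter, no size threshold, a replicate block, one fit of all libraries, summed lines, spike-in scaling and leaving out each library were the alternatives.

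The genes and lists were chosen with earlier results of these data known. Besides the 10 factors and Mta1 to Mta3, the text names up to 3 called genes of each list with the largest absolute log2 fold change in a comparison and the gene most alike each factor; Esrrb, Sox2, Yap1, Tpbpa, Prl2c2, Prl3b1, Prl3d1 and Ctsq are named outside that rule, as examples of their lists. Some genes that the rule would name are not reported here. Whether the 2 libraries of a line were 1 library deposited again was checked by chi-square, which gave 6.32 to 19.4 per degree of freedom, beyond counting noise. In the single-mutant set, Mta2 KO 1 and 3 gave 4.41, against 77.1 and 74.7 for their pairs with 2. Mta2 WT 1 and 2 gave 8.63, against 187 and 215 for their pairs with 3. The Mta2 p-values rest on these uneven spreads, and what sets the other library of each group apart was not tested. P-values measure the spread between libraries, which within a line may be technical. The replicate number pairs the culture comparisons, where it names the line (correlation of deviations at least 0.272), and Mta1 (at least 0.435), but not the other comparisons.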

Additional observations from a re-analysis of the deposited data

Results flagged for a closer look

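In 1 of 40 groups of 4 libraries tested, a library stood far from the rest by Dixon's criterion, which chance alone does in about 1 in 20 groups. Hand1 in Control labelled 2iL was at 0.81 CPM in replicate 1_2, and its gap to the nearest library was 0.902 of the group's range.

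The effect of the genotype differed between the culture labels, by an interaction term, for Tfap2c (−4.25 on the log2 scale), Eomes (−2.36) and Tead4 (−2.09). In each, Mta123KO exceeded Control in libraries labelled 2iL. Labelled 48 h, it did so by less for Tead4 (0.77) and was below Control for Tfap2c (−0.58) and Eomes (−0.50), none of them called.

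The Mta123KO lines differed from each other by the test of line 1 against line 2. Labelled 2iL, line 1 was higher on the log2 scale for Cdx2 (3.04), Hand1 (2.93), Ascl2 (2.56), Gata2 (2.13), Elf5 (1.69) and Gata3 (1.58). Labelled 48 h it was higher for Hand1 (3.22), Ascl2 (2.75), Gata2 (2.50), Cdx2 (2.17), Gata3 (1.19) and Tfap2a (1.01). The Hand1 value labelled 48 h rests on 8 and 9 reads in line 2. Each line rests on 2 libraries, and what sets the lines apart was not tested.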

How the results depend on the processing

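Over 136 values of single factors there were 1958 alternative values, of which 1852 kept direction and side of the threshold, 44 gained a call, 31 lost one and 31 changed sign. Without the threshold on size, the genes called rose to 11115 labelled 2iL, 10548 labelled 48 h, 12419 with culture in Control, 4817 with culture in Mta123KO, 5306 in the interaction, 7460 for Mta2 and 2508 for Mta3, and the factors called to 4 with culture in Mta123KO and 6 for Mta2. For the lines it gave 14332 (line 1), 12346 (line 2) and 7704 (line 1 against 2) labelled 2iL, and 13267, 11330 and 6201 labelled 48 h. Fewer samples, with lines summed, gave 2834 genes labelled 2iL, 667 in the interaction and 0 genes and 0 factors with culture in Mta123KO. One fit of all libraries gave 5 factors with culture in Control (8 otherwise). The replicate block gave 6 factors in the interaction and 1 for Mta3 (Ascl2, −1.17, adjusted p = 0.0492); that number pairs only the culture comparisons and Mta1. Leaving out libraries gave 2 to 4 factors with culture in Mta123KO (4 without Mta123KO labelled 48 h 2_1), 3 to 1724 genes for Mta3, and 1318 to 2178 genes between lines labelled 48 h (1318 without 2_1, 1371 without 1_2).

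Signs changed only for values that were not called, and the cause was not tested. With culture in Mta123KO, Cdx2 was 0.15 under the block and −0.45 to 0.50 without single libraries, Gata3 −0.03 under spike-in scaling and −0.25 to 0.40, and Ascl2 −0.24 to 0.65. Elf5 with culture in Control ran from −0.06 to 0.46. For Mta1, Elf5 was 0.00 in one fit and −0.19 to 0.14, Gata2 −0.91 to 0.43, Ascl2 −0.81 to 0.55 and Tead4 −0.65 to 0.09. For Mta2, Tfap2a ran from −0.06 to 1.0. For Mta3, Gata3 ran from −0.74 to 0.40, and Gata2 reached −0.19 without Mta3 del/del 2. Cdx2 in line 2 labelled 2iL ran from −0.70 to 0.24. Depth limits Gata3, Elf5 and Hand1 in Control, which had under 40 reads a library.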
